A study of Homo sapiens with 6 samples.

Results

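MHC class I antigen presentation was examined through 9 genes chosen by name, which encode class I heavy chains (HLA-B, HLA-C, HLA-E and HLA-F), the shared light chain (B2M), the peptide transporter (TAP1 and TAP2), its docking chaperone (TAPBP) and the transcriptional activator of the pathway (NLRC5). All 9 were found among the 15651 genes of the table, and all 9 passed the filter on low values. RNA came from MDA-MB-231, a human triple-negative breast cancer (TNBC) cell line, in 3 libraries of cells given the vehicle DMSO and 3 libraries of cells given BRL-50481, an inhibitor of the phosphodiesterase PDE7A. The treatment text of the labels and the paper give 50 μM for 72 h, whereas another label field, the treatment tag, has 5 μM and 48 h, and which of them applies could not be settled from the files. The labels describe oligo-dT libraries and the series record ribosomal RNA depletion. All libraries come from 1 cell line with no genetic change named, and p-values measure only the spread between these 6 libraries. In bulk RNA, fewer cells that express a gene and less of its RNA per cell cannot be told apart. The values are reads per gene scaled by the size factor of the library, called normalized counts here, and rest on 31967337 to 33446984 reads on genes under DMSO and 30750573 to 32058425 under BRL-50481. Of 7 markers of a basal or mesenchymal breast cancer line, all 7 were in the table, with a summed normalized count of 163373 to 165873 under DMSO and 230706 to 234413 under BRL-50481, while 7 of 10 leukocyte markers, PTPRC, CD3E, CD3D, MS4A1, ITGAM and NKG7 among them, were not in the table at all. The other 3 leukocyte markers (CD14, CD68 and LYZ) summed to 3746 to 4305 under DMSO and 5343 to 5653 under BRL-50481, and the part of this difference in the results below was not tested. Of 7 luminal breast markers, 6 were in the table (all but ESR1), with sums of 21600 to 25114 under DMSO and 21620 to 22842 under BRL-50481. Of 4 endothelial markers, 3 were in the table (all but VWF), with sums of 759 to 932 under DMSO and 739 to 873 under BRL-50481. These sums hide opposite changes of single markers in the comparison described below. Of 5 luminal markers tested, 3 were higher and 2 lower (log2 fold changes −1.02 to 0.57). Of the 3 endothelial ones, 2 were higher and 1 lower (−0.60 to 2.33). Among all genes tested, 28.9% were higher and 29.8% lower.

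Class I molecules display short peptides from proteins made inside the cell, so that CD8+ T cells can recognise infected or malignant cells. Proteasomes cut the proteins, the TAP1-TAP2 transporter carries the peptides into the endoplasmic reticulum, and tapasin (TAPBP) holds an empty heavy chain and B2M next to the transporter until a fitting peptide is bound. Interferons raise most of these genes together, largely through NLRC5 and IRF1, and tumours often lower them.

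BRL-50481-treated cells had less mRNA of each of the 4 heavy chains examined, less TAP1 and TAP2, more TAPBP and NLRC5, and a B2M level that did not pass the test. In the comparison across all genes (limma, after adding 1 and taking log2, with p-values adjusted over the 15246 genes tested by the Benjamini-Hochberg method), 6 of the 9 genes were lower and 2 were higher at an adjusted p-value under 0.05. Of all genes tested, 29.8% were lower and 28.9% were higher by the same rule, so changed genes were common in these libraries. The counts called in each list below are to be read beside these shares. The median log2 fold change was −0.33 over the 9 genes and 0.015 over all genes tested. DMSO and BRL-50481 values were separate for each of the 9 genes, 6 with BRL-50481 below DMSO and 3 above, where 32.3% of all genes lay wholly below and 31.9% wholly above.

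**Figure D1:**
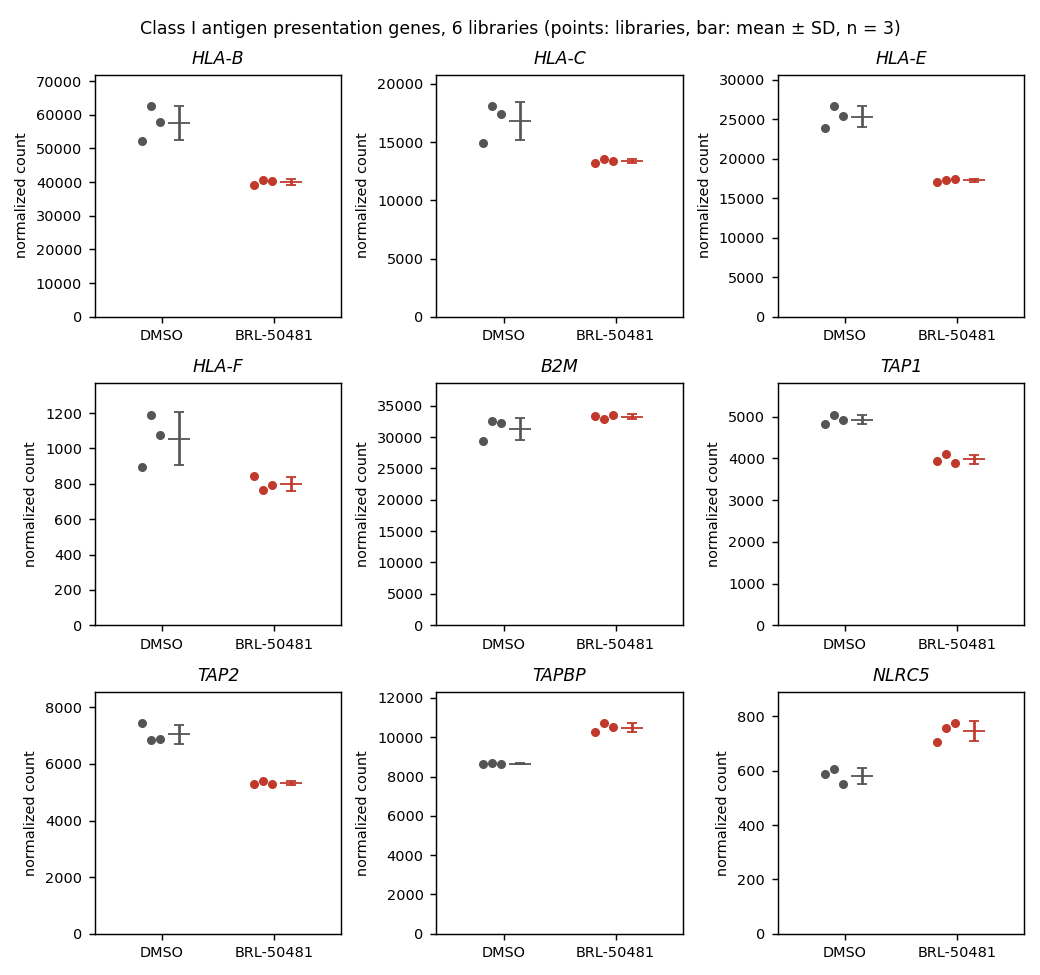
Normalized counts (y axis, from 0) of the 9 class I genes in the 3 DMSO libraries (grey) and the 3 BRL-50481 libraries (red), with the mean and SD of each group beside the points. The 4 HLA genes, TAP1 and TAP2 lie lower in every BRL-50481 library, TAPBP and NLRC5 lie higher in every one, and the B2M points of both groups lie close together.

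The 250 bases before the transcription start are shown for members that fell (HLA-B, HLA-C, HLA-F, TAP1 and TAP2), for B2M and for TAPBP, which rose, so that their elements can be compared with the direction of change. They are RefSeq sequences of GRCh38.p14, written 5′ to 3′ on the gene's strand. Capitals mark matches to the NF-kB form (GGGA, any base, T, any 2 bases, CC), the IRF forms (GAAA or GAA, any 2 bases, GAAA), TGACG (the CREB/ATF half-site) and CCAAT (the NF-Y box) on either strand, a choice of motifs made after these sequences had been read. No promoter entry was found for HLA-E and NLRC5. TAP1 has a second listed start, whose window held none of these motifs and is not shown.
HLA-B, chr6:31357180-31357429, minus strand: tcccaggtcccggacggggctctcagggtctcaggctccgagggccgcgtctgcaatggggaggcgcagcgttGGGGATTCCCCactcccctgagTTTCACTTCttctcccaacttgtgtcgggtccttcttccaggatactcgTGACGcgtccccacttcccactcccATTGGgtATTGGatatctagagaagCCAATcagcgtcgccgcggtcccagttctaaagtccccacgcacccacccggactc
HLA-C, chr6:31272093-31272342, minus strand: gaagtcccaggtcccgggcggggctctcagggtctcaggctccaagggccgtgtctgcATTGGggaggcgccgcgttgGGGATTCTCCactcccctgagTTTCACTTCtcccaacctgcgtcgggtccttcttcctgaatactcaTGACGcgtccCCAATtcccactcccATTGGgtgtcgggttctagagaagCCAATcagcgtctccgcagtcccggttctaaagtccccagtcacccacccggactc
HLA-F, chr6:29723184-29723433, plus strand: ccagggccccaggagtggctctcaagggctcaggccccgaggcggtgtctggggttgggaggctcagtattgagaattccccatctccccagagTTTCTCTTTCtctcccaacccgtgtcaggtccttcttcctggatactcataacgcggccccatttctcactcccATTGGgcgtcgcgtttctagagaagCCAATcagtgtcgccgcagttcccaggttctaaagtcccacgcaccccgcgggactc
B2M, chr15:44711267-44711516, plus strand: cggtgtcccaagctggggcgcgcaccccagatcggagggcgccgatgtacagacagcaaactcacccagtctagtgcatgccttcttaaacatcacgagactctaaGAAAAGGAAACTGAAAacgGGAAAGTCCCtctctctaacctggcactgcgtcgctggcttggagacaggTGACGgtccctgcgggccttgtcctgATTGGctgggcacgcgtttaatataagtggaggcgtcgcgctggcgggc
TAP1, chr6:32853705-32853954, minus strand: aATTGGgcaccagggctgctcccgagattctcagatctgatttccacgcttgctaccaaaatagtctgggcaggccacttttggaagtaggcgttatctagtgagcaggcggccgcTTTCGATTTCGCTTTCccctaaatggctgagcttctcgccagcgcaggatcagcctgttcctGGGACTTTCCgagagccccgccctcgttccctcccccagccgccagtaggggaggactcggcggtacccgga
TAP2, chr6:32838740-32838989, minus strand: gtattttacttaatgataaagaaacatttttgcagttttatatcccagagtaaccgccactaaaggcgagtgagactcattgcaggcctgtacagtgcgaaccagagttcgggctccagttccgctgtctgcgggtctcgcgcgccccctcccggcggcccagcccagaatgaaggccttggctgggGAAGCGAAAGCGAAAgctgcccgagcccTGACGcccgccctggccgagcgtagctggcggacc
TAPBP, chr6:33314079-33314328, minus strand: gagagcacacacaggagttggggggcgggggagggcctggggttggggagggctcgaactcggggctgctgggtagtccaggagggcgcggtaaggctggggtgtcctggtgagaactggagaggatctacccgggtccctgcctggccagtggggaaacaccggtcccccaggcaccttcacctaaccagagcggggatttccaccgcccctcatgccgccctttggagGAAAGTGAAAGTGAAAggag
HLA-B and HLA-C hold the same series, with the NF-kB form, the shorter IRF form, TGACG and CCAAT in that order towards the start, and HLA-C has a further CCAAT match on the other strand before them. B2M, which did not pass the test, holds the longer IRF form in an overlapping pair, the NF-kB form, TGACG and CCAAT. TAP1, which fell, and TAPBP, which rose, both hold overlapping pairs of the longer IRF form. TAP1 also holds the NF-kB form, and CCAAT at the far edge of its window (−249 to −245). Neither was matched in TAPBP, but its window holds ggggatttcc, which departs from the NF-kB form only by a G in place of the A. The 2 promoters are therefore not clearly set apart by these elements. TAP2, which fell, holds both IRF forms, which overlap, and TGACG, but neither the NF-kB form nor CCAAT. HLA-F holds the longer IRF form and CCAAT, and neither the NF-kB form nor TGACG was matched in its window. Of the 27305 genes with a promoter in the table, 4.38% had the NF-kB form in the same window, 3.07% the longer IRF form, 6.77% the shorter one, 21.7% TGACG and 33.0% CCAAT. A match describes the letters only.

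HLA-B (chromosome 6 of hg38, 31353872 to 31367067) encodes a classical heavy chain that presents peptides to CD8+ T cells. It had 52325, 62562 and 57872 normalized counts in the DMSO libraries and 39101, 40719 and 40168 in the BRL-50481 libraries. Every BRL-50481 library lay below the lowest DMSO library, at a mean of 39996 ± 823 against 57586 ± 5124 (SD, n = 3). The log2 fold change was −0.52 (standard error, SE, 0.0585, adjusted p = 6.26e-06), and the mean fell by 30.5%. With quantile normalization of the libraries it was −0.30, still past the threshold. In GENCODE, exons of HLA-B share sequence on the same strand with a microRNA gene (MIR6891) and a pseudogene (DHFRP2).

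HLA-C (chromosome 6, 31268749 to 31272130), the other classical chain among the members and a ligand of killer-cell receptors, had 14956, 18093 and 17405 normalized counts under DMSO and 13182, 13538 and 13419 under BRL-50481. The groups did not overlap, yet DMSO replicate 1 lay closer to the treated libraries than to the other DMSO libraries. The log2 fold change was −0.33 (SE 0.0622, adjusted p = 0.000574), and −0.41 without DMSO replicate 1. HLA-E (chromosome 6, 30489509 to 30494194), a non-classical chain that shows leader peptides of other class I chains to NK cells, had 23917, 26634 and 25396 under DMSO and 17084, 17261 and 17357 under BRL-50481. The groups were far apart and the treated libraries nearly equal, with a log2 fold change of −0.55 (SE 0.0476, adjusted p = 6.33e-07). HLA-F (chromosome 6, 29722775 to 29738528), a less abundant non-classical chain, had 894, 1191 and 1077 under DMSO and 843.6, 765.5 and 792.9 under BRL-50481. The lowest DMSO library came close to the highest treated one, and the log2 fold change was −0.39 (SE 0.0935, adjusted p = 0.00305).

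The spread between libraries was larger in DMSO than in BRL-50481 for each of these 4 genes, with a coefficient of variation of 5.37% to 14.2% against 0.804% to 4.95%. DMSO replicate 1 was the lowest and DMSO replicate 2 the highest DMSO library in all 4, and likewise for B2M, TAP1 and TAPBP, but not for TAP2 or NLRC5. Class I genes are near-identical over long stretches, and the cell line's own alleles differ from the reference genome, so counting could lose reads or move them between genes. Summed over the 4 genes, the normalized count was 92092, 108480 and 101749 under DMSO and 70211, 72284 and 71736 under BRL-50481. The sum was lower in each treated library, its mean fell by 29.1%, and a read moved from one of these 4 genes to another does not alter it, while exchange with further HLA genes can. HLA-B made up 56.8% to 57.7% of the sum under DMSO and 55.7% to 56.3% in BRL-50481, and the mean counts of the 4 chains fell by 20.4% (HLA-C) to 31.9% (HLA-E). The ratio of HLA-B to HLA-C fell from 3.43 ± 0.0908 to 2.99 ± 0.0211 (SD, n = 3), with no overlap between the groups (exact permutation, two-sided, p = 0.1, below which 3 libraries against 3 cannot go). It is 1 of 9 ratios tested in this way, and the adjusted p over these was 0.112 for each ratio whose groups were separate.

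B2M (chromosome 15, 44711358 to 44718851), the light chain that every class I heavy chain needs to reach the cell surface, had 29303, 32521 and 32163 normalized counts under DMSO and 33391, 32844 and 33564 under BRL-50481. The treated libraries were all higher, but by little more than the spread between the DMSO libraries. The log2 fold change of 0.088 (SE 0.0484, adjusted p = 0.136) did not pass the threshold. It was called higher with quantile normalization (0.22, adjusted p = 0.000307) and with a correction for transcript length and GC content (0.12, adjusted p = 0.00088), and the direction was the same under all alternatives run.

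Heavy chain and light chain transcripts thus shifted against each other. In each library the summed normalized counts of the 4 HLA genes were divided by that of B2M, which removes any scaling of the whole library. The ratio was 3.14, 3.34 and 3.16 under DMSO and 2.10, 2.20 and 2.14 under BRL-50481. No treated library reached the DMSO range, and the mean ratio fell by 33.2%. For HLA-B alone over B2M, the ratio went from 1.84 ± 0.0761 to 1.20 ± 0.0348 (SD, n = 3; exact permutation, two-sided, p = 0.1, again the lowest reachable).

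**Figure D2:**
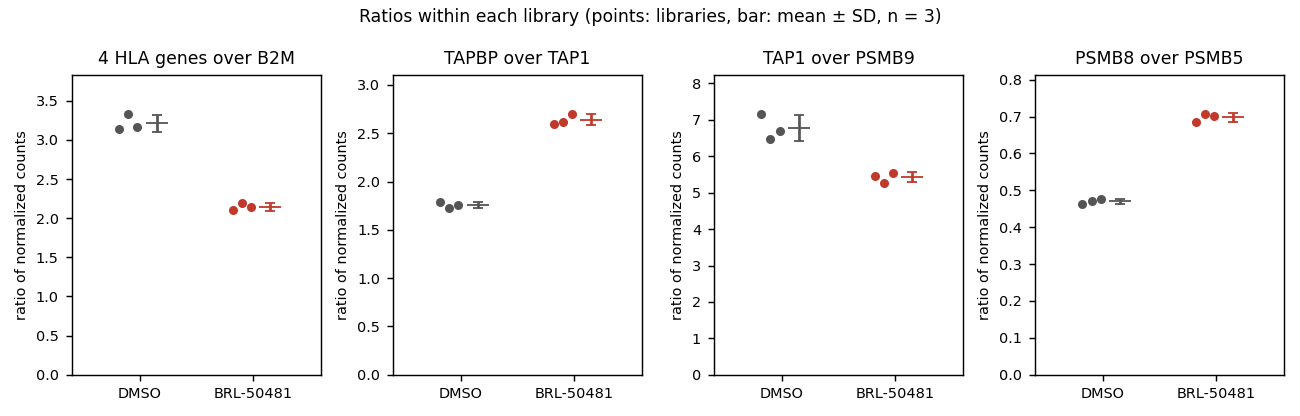
Ratios of normalized counts within each library (y axis, from 0) for DMSO (grey) and BRL-50481 (red), with the mean and SD of 3 libraries. The 4 HLA genes over B2M and TAP1 over PSMB9 lie lower in every BRL-50481 library, and TAPBP over TAP1 and PSMB8 over PSMB5 lie higher.

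Levels of different genes were compared per kilobase of the canonical GENCODE transcript, a scale that depends on that transcript being the one expressed. In DMSO, HLA-B (37491 ± 3336 normalized counts per kilobase) and B2M (33223 ± 1870, SD, n = 3) were highest, and their ranges overlapped, so their order there was not resolved. HLA-C (10906 ± 1069) and HLA-E (9935 ± 534) followed, also with overlapping ranges. TAPBP (2510), TAP1 (1836), TAP2 (1250), HLA-F (712) and NLRC5 (85.8) came next, each below the range of the gene before it. In BRL-50481, B2M (35277 ± 399) lay above HLA-B (26039 ± 536, SD, n = 3) without overlap, and the order of the other 7 genes was the same as in DMSO.

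The transporter and its chaperone moved in opposite directions. TAP1 (chromosome 6, 32845209 to 32853816), one of the transporter's chains, had 4823, 5047 and 4921 normalized counts under DMSO and 3947, 4099 and 3893 under BRL-50481. The groups were well separated, with a log2 fold change of −0.31 (SE 0.0477, adjusted p = 0.0001). TAP2 (chromosome 6, 32821833 to 32838739), the partner chain, had 7441, 6830 and 6891 under DMSO and 5281, 5410 and 5299 under BRL-50481. Every treated library was below every DMSO library (log2 fold change −0.40, SE 0.0489, adjusted p = 1.25e-05), and a further annotated gene overlaps its exons on the same strand. The ratio of TAP2 to TAP1 overlapped between the groups, at 1.43 ± 0.0987 under DMSO and 1.34 ± 0.0207 under BRL-50481 (SD, n = 3; exact permutation, two-sided, p = 0.2).

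TAPBP (chromosome 6, 33299694 to 33314284), which encodes tapasin, had 8626, 8710 and 8638 normalized counts under DMSO and 10244, 10713 and 10518 under BRL-50481. The DMSO libraries were almost identical and every treated library was higher, with a log2 fold change of 0.28 (SE 0.0432, adjusted p = 0.000109). The ratio of TAPBP to TAP1 rose from 1.76 ± 0.0313 to 2.64 ± 0.057 (SD, n = 3; exact permutation, two-sided, p = 0.1, the lowest reachable).

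NLRC5 (chromosome 16, 56989485 to 57083531) encodes the activator that binds the class I promoters through the SXY module, a row of short elements held by the RFX, CREB/ATF and NF-Y factors. It had 589, 606 and 549.5 normalized counts under DMSO and 704, 757 and 774 under BRL-50481. All treated libraries were higher, the opposite direction to 6 of the other members, with a log2 fold change of 0.36 (SE 0.0745, adjusted p = 0.00111). Among the 9 genes of the SXY factors and CIITA, the class II activator that uses the same module, 2 were higher, 1 was lower and 6 did not pass. Over all genes tested, 28.9% were higher and 29.8% lower. CIITA rose from 330.3 ± 55.1 to 518.5 ± 34.2 normalized counts (SD, n = 3, log2 fold change 0.66, adjusted p = 0.000213) and CREB1 by 0.49 on the log2 scale (adjusted p = 0.000124). NFYB, a subunit of the factor that binds CCAAT boxes, fell by 0.43 (adjusted p = 2.35e-05), while its partner subunits NFYA (−0.017) and NFYC (0.038) did not pass, although NFYA was called lower with the length and GC correction (−0.17). The list had a median log2 fold change of 0.10.

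PSMB9, an interferon-inducible proteasome subunit, has its RefSeq start 488 bases from that of TAP1, on the opposite strand. PSMB9 had 729.3 ± 53.4 normalized counts under DMSO and 734.4 ± 39.5 under BRL-50481 (SD, n = 3), a log2 fold change of 0.011 (SE 0.0772, adjusted p = 0.912). The ratio of TAP1 to PSMB9 was 7.17, 6.48 and 6.68 under DMSO and 5.47, 5.26 and 5.54 under BRL-50481. It was lower in every treated library (exact permutation, two-sided, p = 0.1, the lowest reachable). In GENCODE the RNA gene PSMB8-AS1 overlaps TAP1 exons on the other strand, and it went from 187 ± 21.2 to 220.4 ± 18.7 normalized counts (SD, n = 3, adjusted p = 0.106), with strand-specific counting by the authors. HLA-F is overlapped likewise by HLA-F-AS1, at 79.0 ± 5.97 and 62.4 ± 13.2 normalized counts (SD, n = 3, adjusted p = 0.116).

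Of 6 genes of the immunoproteasome, which cuts peptides suited to class I, and of PA28 activators, none was higher, 2 were lower and 4 did not pass the test. Over all genes tested, 28.9% were higher and 29.8% lower. PSME2 (log2 fold change −0.42, adjusted p = 4.6e-05), a subunit of the PA28 activator, was lower. So was PSME3 (−0.52, adjusted p = 6.54e-07), which encodes PA28 gamma, a separate activator. The catalytic subunits PSMB8 (−0.015), PSMB9 and PSMB10 (0.14) and the PA28 subunit PSME1 (−0.11) did not pass. PSMB10 was called higher with the length and GC correction (0.24) and ranged from 0.0052 to 0.21 over the fits that left out 1 library, and PSME1 was called lower without DMSO replicate 1 (−0.17). The 3 constitutive catalytic subunits that these replace were all lower, PSMB5 by 0.58, PSMB6 by 0.41 and PSMB7 by 0.15 on the log2 scale. PSMB7 was not called in each of 4 fits that left out 1 library (BRL-50481 replicate 1 or 2, or DMSO replicate 2 or 3), with log2 fold changes of −0.14 to −0.12. PSMB7 was also not called with median centring (−0.12), quantile normalization (−0.11) or no trend. The ratio of PSMB8 to PSMB5 rose from 0.471 ± 0.00644 to 0.698 ± 0.0123, and that of PSMB9 to PSMB6 from 0.194 ± 0.000103 to 0.261 ± 0.0183 (SD, n = 3; exact permutation, two-sided, p = 0.1 each, the lowest reachable). The ratio of PSMB10 to PSMB7 was 0.0906 ± 0.00944 and 0.111 ± 0.00831 (SD, n = 3), again without overlap.

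Among 9 genes that trim peptides or fold class I chains, 5 were lower, 3 were higher and 1 (NRD1, at 0.059, called higher at 0.084 without DMSO replicate 1) did not pass, with a median log2 fold change of −0.15. The shares over all genes tested were 29.8% lower and 28.9% higher. The chaperones PDIA3 (−0.21, adjusted p = 0.001), CALR (−0.16, adjusted p = 0.0106) and CANX (−0.15, adjusted p = 0.0191) were lower. CALR and CANX had log2 fold changes of 0.025 and 0.049 with quantile normalization, so their direction depends on the scaling. CALR was not called without DMSO replicate 3 (−0.14), nor CANX without BRL-50481 replicate 2 or 3 (−0.14 each). Neither CALR nor CANX was called with quantile normalization or no trend, and CANX was not called with median centring (−0.12). Of the aminopeptidases that trim peptides in the endoplasmic reticulum, ERAP2 rose from 285 ± 22.0 to 481 ± 31.9 normalized counts (SD, n = 3, log2 fold change 0.75, adjusted p = 1.51e-05), while ERAP1 was lower (−0.195, adjusted p = 0.0122). ERAP1 was not called without BRL-50481 replicate 1 or 3 (−0.19 each), nor in the fit with no trend. TAPBPL, a relative of tapasin that edits peptides, was higher at a low level (78.9 ± 13.3 and 116.5 ± 6.52 normalized counts, SD, n = 3, log2 fold change 0.57, adjusted p = 0.00704). LNPEP, an aminopeptidase of endosomes, had 955.5 normalized counts in DMSO replicate 1 against 372 and 403.5 in the other DMSO libraries, and 1068 to 1177 under BRL-50481. Its log2 fold change of 1.08 (adjusted p = 0.00229) became 1.52 without DMSO replicate 1. LNPEP was not called by DESeq2 on recovered reads (adjusted p = 0.058) or in the fit with no trend (adjusted p = 0.0554). THOP1, which destroys peptides in the cytosol, was lower (−0.18, adjusted p = 0.0367), but was not called without DMSO replicate 2 or 3 or without BRL-50481 replicate 1 or 3. THOP1 was also not called with median centring (−0.15), quantile normalization (−0.14) or no trend.

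**Figure D3:**
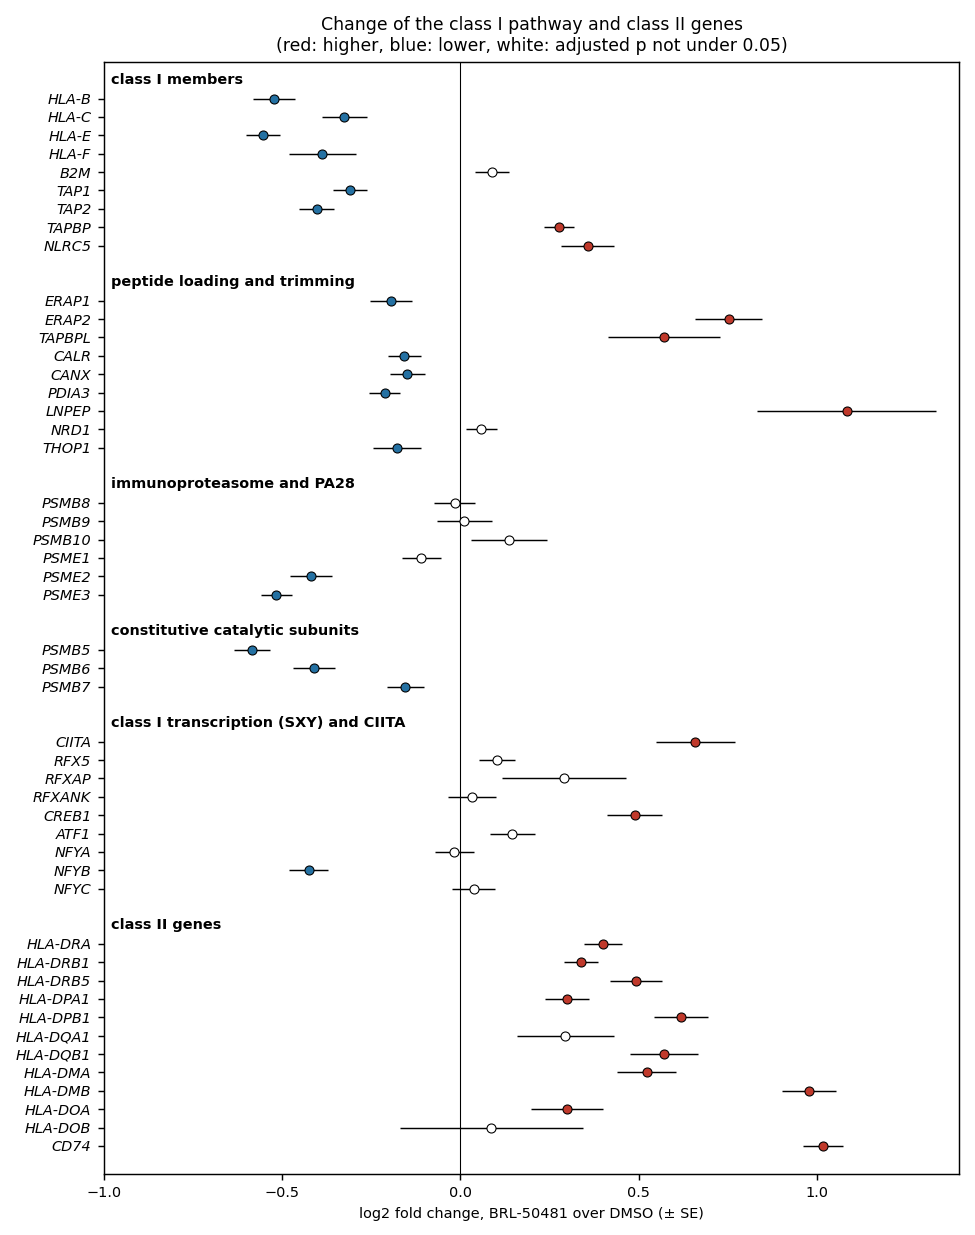
Log2 fold change of BRL-50481 over DMSO with its standard error (x axis) for the class I members and 5 lists of related genes (y axis), coloured by the call at an adjusted p-value under 0.05. The HLA chains and TAP genes lie left of 0, TAPBP and NLRC5 lie right of it, and 10 of the 12 class II genes are called higher.

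Class II genes, whose molecules present peptides taken up from outside the cell, moved the other way from the class I chains. Of 12 genes in the list, 10 were higher, 0 were lower and 2 did not pass (median log2 fold change 0.45). Among all genes tested, 28.9% were higher and 29.8% lower. CD74, the invariant chain that fills the class II groove, rose from 10369 ± 771 to 20972 ± 695 normalized counts (SD, n = 3, log2 fold change 1.02, adjusted p = 1.36e-08). HLA-DRA, the alpha chain of HLA-DR, rose from 6409 ± 420 to 8446 ± 90.4 (log2 fold change 0.40, adjusted p = 2.66e-05), and HLA-DRB1, a beta chain of HLA-DR, by 0.34 (adjusted p = 4.47e-05). HLA-DQA1 (0.29) and HLA-DOB (0.086) did not pass, though HLA-DQA1 was called higher without DMSO replicate 2 (0.39) and with the length and GC correction (0.31). HLA-DOA (0.30) was not called without BRL-50481 replicate 2 (0.23), nor in the fit with no trend. HLA-DRB1 has near-identical relatives, so its reads are uncertain.

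Interferon genes themselves (8 listed) were not in the table. Of 30 interferon-stimulated genes, 18 were higher, 5 were lower and 7 did not pass, and the list's median log2 fold change was 0.503. The shares over all genes tested were 28.9% higher and 29.8% lower. RSAD2, an antiviral enzyme, rose by 2.23 on the log2 scale from a low level of 8.995 ± 2.73 to 45.5 ± 10.7 normalized counts, and OASL, a relative of the 2-5A synthetases, by 2.04, from 245 ± 32.9 to 1001 ± 13.5 (SD, n = 3). IFI44 (1.60), XAF1 (1.55), IFIT1 (1.42), SAMD9L (1.30), OAS1 (1.27) and DDX58, the sensor RIG-I (1.03), also rose by over 1. The most abundant of the list was IFITM3, a membrane protein that blocks virus entry, which fell by 0.32 (adjusted p = 0.000397). Its relatives IFITM1 (−0.35) and IFITM2 (−0.22), IFIT5 (−0.24) and IRF7, a transcription factor of the interferon response (−0.43), were the other lower genes, and IFITM2 was not called without BRL-50481 replicate 1 or 2 or DMSO replicate 2 or 3 (−0.22 to −0.14). IFITM2 was also not called with median centring (−0.19), quantile normalization (−0.18) or no trend. IFIT3 rose by 0.83 and BST2 did not pass (0.056, but called higher at 0.13 with the length and GC correction), so the class I chains shared their direction with the minority of this list.

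Of 17 tested genes that relay interferon or NF-kB signals to class I promoters, 7 were higher, 5 were lower and 5 did not pass, with a median log2 fold change of 0.10. The shares over all genes tested were 28.9% higher and 29.8% lower. IRF1, which binds the IRF element of class I promoters, fell from 3515 ± 192 to 2981 ± 20.01 normalized counts (SD, n = 3, log2 fold change −0.24, adjusted p = 0.0019). JAK1, the kinase bound to interferon receptors, and IFNGR2, a chain of the interferon gamma receptor, rose by 0.20 and 0.31 on the log2 scale, JAK1 without a call in the fit with no trend (adjusted p = 0.0501). NFKB1, an NF-kB subunit, rose by 0.43 and was called under all 17 alternatives. TYK2 (0.30) and EZH2 (0.22) were also higher. JAK2 (0.44) was higher, but was not called without BRL-50481 replicate 1 or 3 or DMSO replicate 2. Nor was JAK2 called with no trend, quantile normalization or the length and GC correction. RELA, an NF-kB subunit that activates class I genes, was lower (−0.17, adjusted p = 0.0149). The RELA call was lost without BRL-50481 replicate 1 or 3 or DMSO replicate 2 (−0.16 to −0.14), and with no trend or quantile normalization. The other lower genes were IFNGR1 (−0.18, not called with quantile normalization at −0.12), IRF2 (−0.17) and the repressor PRDM1 (−0.43), and IRF2 was not called without any 1 of the BRL-50481 libraries or without DMSO replicate 3 (−0.18 to −0.16). IRF2 was also not called with median centring (−0.14) or quantile normalization (−0.13). The mRNA of PDE7A, the enzyme that BRL-50481 inhibits, was lower in the treated libraries by 0.45 on the log2 scale (adjusted p = 0.00199).

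Other genes with the class I fold were compared next. Of 12 tested class I-like genes, 6 were lower, 2 were higher and 4 did not pass, with a median log2 fold change of −0.29. Among all genes tested, 29.8% were lower and 28.9% higher. Of 7 tested stress ligands of the NK cell receptor NKG2D, 4 were lower, and RAET1E (0.10), RAET1G (−0.15) and RAET1L (0.43) did not pass. ULBP2 went from 911 ± 87.4 to 453 ± 30.2 normalized counts (SD, n = 3), so its mean fell by 50.2% (adjusted p = 6.5e-07), MICA fell by 0.44 (adjusted p = 2.29e-05) and MICB by 0.39 (adjusted p = 0.000154). ULBP3, a further NKG2D ligand, was lower at a low level (−0.70, adjusted p = 0.0116) but was not called without BRL-50481 replicate 1 (−0.57). PROCR, the endothelial protein C receptor, fell by 0.53 (adjusted p = 1.26e-05). HFE, which binds B2M and regulates iron uptake, rose from 320.3 ± 20.3 to 662 ± 30.9 (SD, n = 3, log2 fold change 1.05, adjusted p = 3.18e-07), and MR1, which presents vitamin metabolites, by 0.23 (adjusted p = 0.00896), though MR1 was not called with the length and GC correction (0.059). Of 5 other genes and pseudogenes of the HLA region, 2 were lower, 1 was higher and 2 did not pass, counts to be read beside the same shares. The pseudogene HLA-H, which could share reads with expressed HLA genes, fell by 0.31 (adjusted p = 0.00218), and HLA-L did not pass (−0.11). HLA-G, a non-classical class I gene with 37.9 ± 3.07 and 21.6 ± 6.97 normalized counts (SD, n = 3), was lower (−0.83, adjusted p = 0.0179) but was not called without DMSO replicate 3 or without BRL-50481 replicate 1 or 3 (−0.80 to −0.62). HCP5, a non-coding RNA gene between the MIC genes, rose by 0.53 (adjusted p = 2.63e-05).

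Except for B2M and NLRC5, the members lie within 3.59 megabases of chromosome 6, from HLA-F at 29722775 to TAPBP at 33314284. Of 129 genes tested there, 21.7% were higher and 31.0% lower, and the median log2 fold change was −0.015. Without the 7 members, 34 of 122 genes were lower (27.9%) and 27 were higher (22.1%), near the shares over all genes tested for the lower calls and under them for the higher ones. In the stretch that holds TAP1 and TAP2, the class II genes on either side had log2 fold changes above 0, while PSMB8 and PSMB9, next to the TAP genes, stayed close to 0. On the TAP2 side the nearest, HLA-DOB (0.086), HLA-DQB2 (0.21) and HLA-DQA2 (0.21), were not called. HLA-DOB changed sign with quantile normalization and without BRL-50481 replicate 2. On the other side HLA-DMB (0.98) and HLA-DMA (0.52) were called higher.

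**Figure D4:**
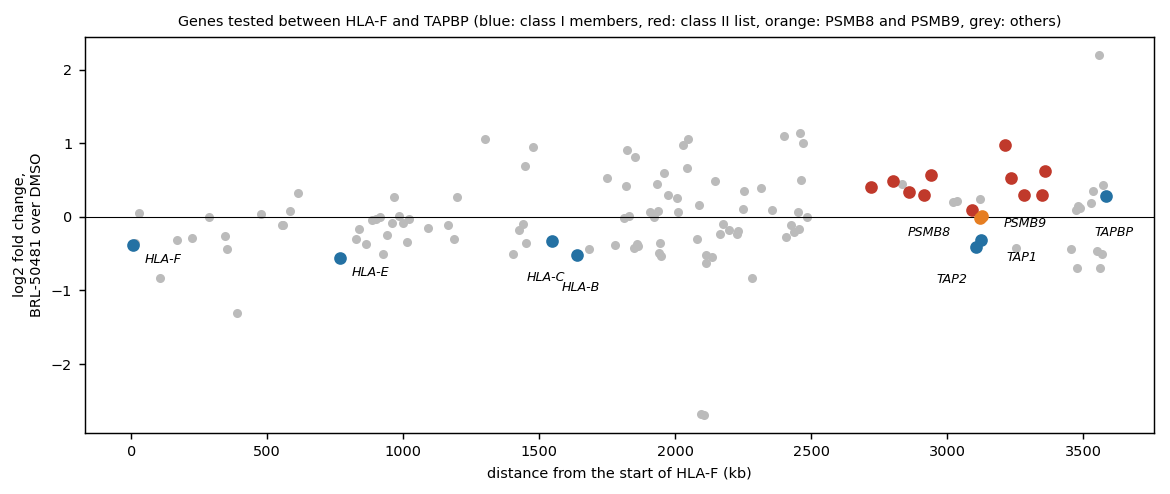
Log2 fold change of BRL-50481 over DMSO (y axis) for 129 genes tested between HLA-F and TAPBP, by distance of the gene's centre from the start of HLA-F in kilobases (x axis), with class I members in blue, class II genes in red and PSMB8 and PSMB9 in orange. TAP1 and TAP2 lie below 0 among class II genes that lie above it.

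The profile of the 6 members called lower, their mean in each of the 6 libraries after standardizing each gene, was most like those of C18orf21, PSMD8, NME4, STOML2 and FLJ23867 (Pearson's r 0.9987 to 0.9993). PSMD8 is a proteasome subunit and NME4 a nucleoside diphosphate kinase of mitochondria. The profile of TAPBP and NLRC5 was most like those of PCYT2, TRAF3IP2, FRMD5, CAT and C16orf45 (r 0.9977 to 0.9988), where CAT encodes catalase. These are descriptions over 6 libraries in 2 groups, in which 2096 and 1216 of 11446 genes compared had an r over 0.95 with the respective profile.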

How the data were processed

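RNA-seq values of 6 libraries of MDA-MB-231 cells (3 DMSO, 3 BRL-50481), grouped by their labels, were taken from 1 table. Single-end reads were aligned to hg38 by the authors with STAR and assigned to UCSC genes with htseq-count, reading the reverse strand, and DESeq2 was their tool for scaling and testing. The deposited signal per gene and library is a count over a size factor, and a further deposited signal column averages the 6 libraries. The log2 fold changes, scores (Wald statistics) and p-values that the authors deposited were not used. How reads that fit several HLA genes were handled beyond the defaults of these tools is not given in the sources used here.

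A read was worth 0.969 to 1.02, and all 93906 values divided by it were whole (tolerance 1e-06), which gave the reads. The 15246 genes that reached 4 normalized counts in 3 or more libraries were tested with limma 3.58.1 in R 4.3.3 (trend) on log2 of the value plus 1, with adjustment over all of them. Alternatives were a pseudocount of 0.5 or 4, all genes unfiltered, genes with a mean of 20 or more, quantile normalization, median centring, no trend, edgeR 4.0.16 and DESeq2 1.42.0 on recovered reads, a replicate block, a loess correction (span 0.5) for transcript length and GC content of GENCODE 44, which 96.5% of genes had, and leaving out each library. The limma test, edgeR and DESeq2 were also run on simulated counts with few changed genes. Changed genes were common in these libraries, so that run does not test the scaling used here, nor the other alternatives.

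Members, lists and ratios were chosen with earlier results of these data known. Named genes were all members, called genes of 3 lists (peptide loading, immunoproteasome, SXY), genes of the other lists called with an absolute log2 fold change over 1, the 3 most abundant genes of each list, IRF1, PDE7A and the 5 genes most like each profile. Others were named after their values were seen. A result that the rule also names is not reported here.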

Additional observations from a re-analysis of the deposited data

How the results depend on the processing

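Under each of the 17 alternatives, 6 members were called lower, TAPBP and NLRC5 were called higher, and no member changed direction. B2M was called higher only with quantile normalization (log2 fold change 0.22) and with the correction for length and GC content (0.12), and its adjusted p ranged from 0.000307 to 0.299 over the alternatives. In fits that each left out 1 library, log2 fold changes lay between −0.59 and −0.46 for HLA-B, −0.41 and −0.27 for HLA-C, −0.59 and −0.52 for HLA-E, −0.50 and −0.29 for HLA-F, 0.041 and 0.12 for B2M, −0.33 and −0.29 for TAP1, −0.43 and −0.36 for TAP2, 0.26 and 0.29 for TAPBP, and 0.32 and 0.40 for NLRC5. Of the 9 peptide loading and trimming genes, 3 were called without a trend, 5 with quantile normalization and 5 to 9 with a library left out, the fewest without BRL-50481 replicate 3. Of the SXY factors and CIITA, 5 were called with quantile normalization and 5 with median centring, against 3. The cause of these shifts was not tested. Same-numbered libraries did not deviate together over the genes tested (correlations −0.0172 to 0.0157). This cannot show whether they were handled together, which the labels do not say. The fit with the replicate block called 4440 genes higher and 4589 lower, against 4400 and 4546. Depth limits the rare genes of the lists most, and how reads were split among HLA paralogs cannot be read from gene totals.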
